A study of Pleurotus ostreatus with 9 samples.

Results

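The genes described here are those of the peroxisome pathway (KEGG) of the oyster mushroom Pleurotus ostreatus that lie outside fatty acid beta-oxidation. A gene was taken where its pathway annotation in the deposited table held the peroxisome map, where it held neither fatty acid degradation nor glycolysis, where none of its ontology terms was acyl-CoA dehydrogenase activity or fatty acid beta-oxidation, and where it was not one of 2 catalase genes. This gave 61 genes of the 10682 in the table, out of 80 with the peroxisome map. No expression value entered the choice. They carry 33 different KEGG orthology numbers, and 60 of them are described as hypothetical proteins, so every product name below is the name of the orthology number and not a measured activity. An ontology term names the product, or a peroxisomal role, for 26 of the 61, the terms of 22 do not, and 13 have no informative term. No sequence is shown, as no protein or promoter sequence was used here.

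The peroxisome is a membrane-bound organelle in which oxidases pass electrons to oxygen and form hydrogen peroxide. It has no DNA, so all of its proteins are made in the cytosol and brought in. Peroxins (PEX proteins) do this work. In mammals PEX3, PEX16 and PEX19 place proteins in the membrane. In yeast and mammals the receptors PEX5 and PEX7 carry matrix proteins to a docking complex that holds PEX13 and PEX14, a ubiquitin ligase complex with PEX2 and PEX10 and ATPases such as PEX6 return the receptor to the cytosol, and PEX11 acts in division. In fungi peroxisomes house fatty acid oxidation and enzymes of the glyoxylate cycle.

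RNA was measured by poly(A) RNA sequencing in mycelium of strain GEMB-PO1 grown in shaken glucose, yeast extract and peptone medium and harvested after 3 days, in 3 groups of 3 libraries that the series calls biological replicates. The first group received butyl benzyl phthalate (BBP, a phthalate plasticizer) and piperonyl butoxide at 1 mM (PB, which inhibits cytochrome P450 enzymes), the second received BBP alone, and the control had no chemical added, with no vehicle named. The sources differ on the amount of BBP, 50 mg/L in the series design against 200 mg/L in the protocols of the samples, and values are therefore given without a dose. PB without BBP was not analysed here, so that a difference between BBP with PB and BBP cannot be told apart from an action of PB itself. Levels are FPKM (fragments scaled to gene length and library total, made by the authors), given as mean ± SD over 3 libraries or per library in the order of replicates 1, 2 and 3. Changes are log2 fold changes ± SE from raw counts, and a gene counts as called where edgeR's quasi-likelihood test gave an adjusted p under 0.05 (Benjamini-Hochberg, over all 9399 genes with a mean of at least 1 FPKM).

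Total counts per library ran from 38098599 to 49161706, and all libraries carry the same batch label. The marker of the labelled tissue that was matched by name, the vegetative mycelium hydrophobin Vmh2, PLEOSDRAFT_1091049, stood at 0.767, 0 and 0.512 FPKM with BBP and PB, at 102, 10.5 and 68.3 FPKM with BBP, and at 569.9, 610.5 and 843 FPKM in control. It was thus near 0 in the mycelium with BBP and PB and lowest in replicate 2 among the BBP libraries, and its part in the results below was not tested. In bulk RNA, fewer cells of a kind and less RNA per cell cannot be told apart.

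Of the 61 genes 55 passed the filter on low values, with mean levels over the 9 libraries from 1.02 to 1864 FPKM. The median level of all 61 was 31.7 FPKM, against 15.9 FPKM over all 10682 genes. The 6 below the filter lay between 0 and 1.24 FPKM in every library: the D-amino acid oxidase genes PLEOSDRAFT_1061413 and PLEOSDRAFT_1099731, the sarcosine oxidase gene PLEOSDRAFT_1033115, the acyl transporter genes PLEOSDRAFT_160331 and PLEOSDRAFT_160332, and PLEOSDRAFT_1102241, which carries the PEX3 number. With BBP 28 of the 55 rose and 1 fell against control, where 10.1% of all genes tested rose and 8.33% fell. With BBP and PB 30 rose and 5 fell against control, where 19.9% of all genes rose and 21.2% fell. Between BBP with PB and BBP 7 rose and 3 fell, where 9.98% of all genes rose and 10.5% fell. The median log2 change of the 55 was 0.48 for BBP and 0.56 for BBP with PB against control, and 0.032 between BBP with PB and BBP, while that of all genes was -0.0061, -0.038 and -0.012. The share of the 55 that rose was thus above that of all genes in both comparisons with control. Between the 2 treatments the share that rose, 12.7%, lay near that of all genes, and the share that fell was 5.45%.

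In the FPKM values the 3 BBP libraries lay above all 3 controls for 28 of the 55 genes and below them for 6, against 12.3% and 22.1% of all genes tested. The 3 libraries with BBP and PB lay above the controls for 29 and below them for 9, against 17.1% and 40% of all genes. Against the BBP libraries they lay above for 11 and below for 12, against 15.6% and 29.7% of all genes. The FPKM scale uses each library's total, whereas the test used TMM factors. Under scaling by library totals alone the median change over all genes was -0.11 for BBP and -0.26 for BBP with PB against control, and -0.12 between the 2 treatments, and 7.28% of all genes rose and 11.8% fell with BBP, 12.7% rose and 33.9% fell with BBP and PB against control, and 6.61% rose and 14.1% fell between BBP with PB and BBP. On that scaling 21 of the 55 genes rose and 3 fell with BBP, 25 rose and 6 fell with BBP and PB against control, and 3 rose and 5 fell between BBP with PB and BBP. Between the treatments the rises outnumbered the falls with TMM scaling and the falls outnumbered the rises with library size alone. The comparisons share libraries, and counts in one are not independent of those in another.

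**Figure D1:**
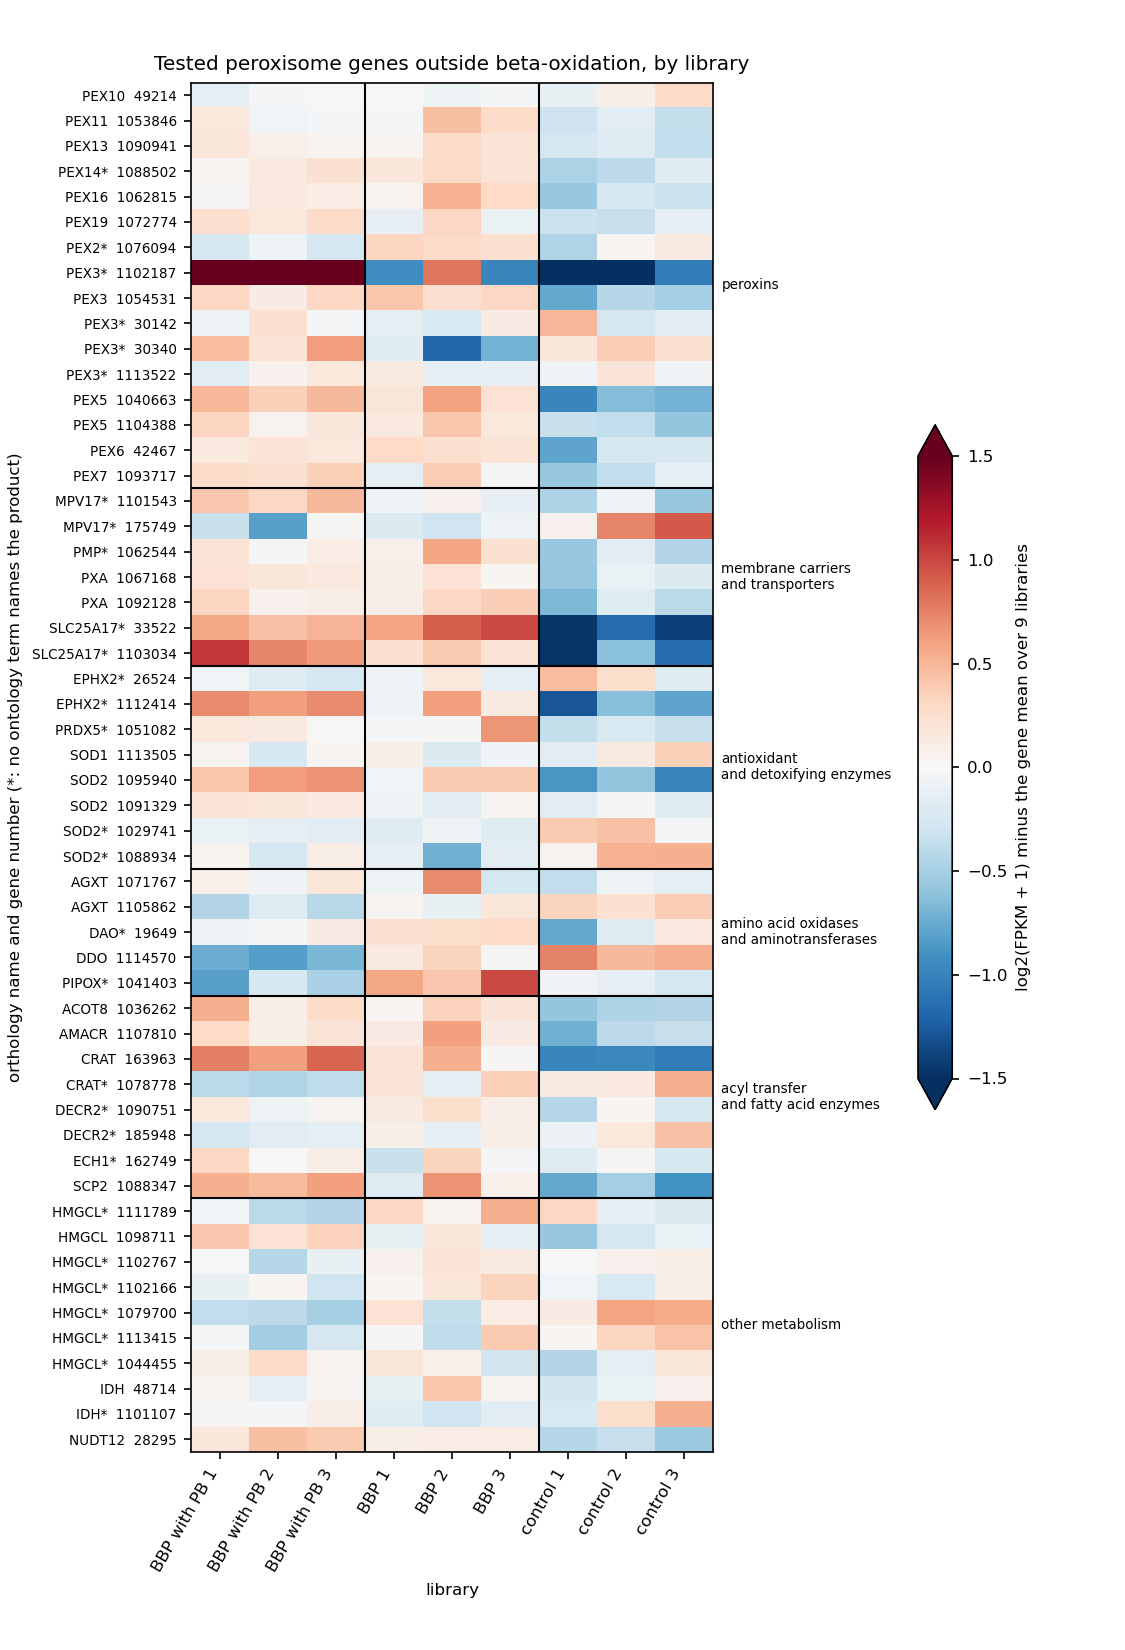
Each row is one of 54 of the 55 tested genes and each column a library, coloured by log2(FPKM + 1) minus the mean of that gene over the 9 libraries, with rows grouped by role. Most rows of the peroxins and of the membrane carriers are blue in the control libraries and red or pale with BBP and with BBP and PB, while the rows of other metabolism are mixed.

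Among the peroxins 18 genes carry 12 orthology numbers. PEX3 alone accounts for 6 of them, and 5 of these 6 have only membrane transport terms. They are described apart from the rest. The other 13 all passed the filter, and 11 rose with BBP against control while PEX10 and PEX19 did not pass the test, with a median log2 change of 0.69. With BBP and PB 11 rose against control and PEX2 and PEX10 did not pass, with a median of 0.71. The rises were 84.6% of the 13 in each comparison, where 10.1% of all genes rose with BBP and 19.9% with BBP and PB. Of all 17 tested peroxin genes 12 rose in each comparison, or 70.6%, and 1 fell with BBP. PEX2 and PEX14, kept among the 13, also lack a term that names the product. Between BBP with PB and BBP edgeR called 0 of the 13, with log2 changes from -0.38 to 0.31 and SE from 0.1002 to 0.145, where 20.4% of all genes were called. At an unadjusted p under 0.05 edgeR had 2 of the 13, PEX19 upward and PEX2 downward. PEX2 was called as lower in 6 of 18 alternatives, which were the DESeq2 Wald test and edgeR with DESeq2 size factors, with library size only, with only the 6 libraries compared, and without control replicate 1 or 3. Both limma fits called 0. Without BBP replicate 2 edgeR called 3 of the 13 as higher with BBP and PB, the PEX5 gene PLEOSDRAFT_1040663, PEX7 and PEX19. The FPKM of the 13 genes summed to 1103, 1028 and 1054 with BBP and PB, to 1011, 1287 and 1125 with BBP, and to 709.8, 809.9 and 767 in control. All 6 treated sums lay above all 3 control sums.

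Of these 13 genes a PEX5 gene had the highest log2 change in both comparisons with control. PEX5 binds the targeting signal at the carboxyl end of most matrix proteins, and 2 genes carry its number. PLEOSDRAFT_1040663 had 146, 132 and 145 FPKM with BBP and PB, 117, 157 and 120.1 FPKM with BBP, and 51.9, 65 and 62.4 FPKM in control. The treated libraries all lay above the controls, and those of the 2 treatments overlapped. Its log2 change was 1.24 ± 0.131 (adjusted p = 0.000454) for BBP and 1.45 ± 0.131 (adjusted p = 3.6e-05) for BBP with PB against control. PLEOSDRAFT_1104388 had 48.7, 40.2 and 43.6 FPKM with BBP and PB, 43.1, 51.9 and 43.3 FPKM with BBP, and 30.6, 29.7 and 25.5 FPKM in control, again with no overlap between treated and control libraries (log2 change 0.78 ± 0.142, adjusted p = 0.00573, and 0.83 ± 0.142, adjusted p = 0.00146 with PB). PEX7 is the receptor for the targeting signal at the amino end. Its gene PLEOSDRAFT_1093717 had 39.3, 38.1 and 41.8 FPKM with BBP and PB, 29.1, 42.3 and 31.9 FPKM with BBP, and 21.5, 24.9 and 29.3 FPKM in control. BBP replicate 1, at 29.1 FPKM, lay within the range of the controls. The gene rose with BBP (log2 change 0.56 ± 0.145, adjusted p = 0.0266) and with BBP and PB (log2 change 0.87 ± 0.146, adjusted p = 0.00129). The BBP call was lost in 7 of 18 alternatives, among them without BBP replicate 2 or without control replicate 1 or 2.

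The RNA of both docking protein genes rose. PEX13, PLEOSDRAFT_1090941, had 134, 124 and 122 FPKM with BBP and PB, 121, 144 and 134 FPKM with BBP, and 98.8, 102 and 91.2 FPKM in control. PEX14, PLEOSDRAFT_1088502, had 31.7, 34.1 and 36.1 FPKM with BBP and PB, 34.7, 37.7 and 35.3 FPKM with BBP, and 21.9, 23.2 and 27 FPKM in control. In both genes every treated library exceeded every control. On the log2 scale PEX13 rose by 0.55 ± 0.116 (adjusted p = 0.0112) with BBP and by 0.58 ± 0.116 (adjusted p = 0.00322) with BBP and PB. PEX14 rose by 0.69 ± 0.101 (adjusted p = 0.00223) with BBP and by 0.71 ± 0.101 (adjusted p = 0.000493) with BBP and PB. No ontology term names the PEX14 gene.

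PEX6 is an ATPase that pulls the receptor out of the membrane. Its gene PLEOSDRAFT_42467 had 34.4, 35.8 and 34.7 FPKM with BBP and PB, 38.2, 37 and 35.9 FPKM with BBP, and 17.4, 25.7 and 26 FPKM in control, with no overlap between treated and control libraries (log2 change 0.80 ± 0.115, adjusted p = 0.00202, and 0.82 ± 0.115, adjusted p = 0.000452 with PB). The PEX6 gene shares 55 bases of its 3751 with a gene on the other strand, PLEOSDRAFT_1110684, and although the libraries mark strand, the strand setting of the counting is not given in the sources used here. Without it, reads of the shared stretch cannot be told apart. It is the 1 gene of the 61 that overlaps another gene of the table.

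Of the 2 ubiquitin ligase genes, edgeR with TMM scaling on all 9 libraries called 1, in 1 comparison. PEX10, PLEOSDRAFT_49214, had 19.8, 21.3 and 21.9 FPKM with BBP and PB, 21.7, 20.8 and 21.5 FPKM with BBP, and 20.1, 23.2 and 26.9 FPKM in control, and the groups overlapped in all 3 comparisons. It was not called in any of them (adjusted p = 0.899 for BBP and 0.689 for BBP with PB against control). PEX2, PLEOSDRAFT_1076094, whose ontology terms name fatty acid metabolism and zinc binding, had 29.1, 33.1 and 28.6 FPKM with BBP and PB, 43.5, 42.4 and 41.1 FPKM with BBP, and 25.1, 35.2 and 38.2 FPKM in control. The BBP libraries lay above both other groups. PEX2 rose with BBP against control (log2 change 0.48 ± 0.121, adjusted p = 0.0226). That call was lost in 7 of 18 alternatives, among them without BBP replicate 1 or without control replicate 1 or 2. With BBP and PB edgeR with TMM scaling on all 9 libraries did not call it (adjusted p = 0.518 against control and 0.0515 against BBP). Against BBP it was called as lower in the 6 alternatives named for the 13 genes, some of which kept TMM scaling.

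Among genes for the membrane itself, the PEX3 gene whose terms name the peroxisome, PLEOSDRAFT_1054531, had 33.3, 29.2 and 33.4 FPKM with BBP and PB, 35.9, 31.9 and 33.4 FPKM with BBP, and 15.2, 19.6 and 18.4 FPKM in control, so that treated and control libraries did not overlap. Its log2 change was 1.04 ± 0.102 (adjusted p = 0.000374) with BBP and 1.07 ± 0.102 (adjusted p = 5.08e-05) with BBP and PB. PEX16, PLEOSDRAFT_1062815, had 114, 124 and 122 FPKM with BBP and PB, 116, 162 and 138 FPKM with BBP, and 75.7, 95.1 and 90.0 FPKM in control, also without overlap (log2 change 0.79 ± 0.129, adjusted p = 0.00369, and 0.68 ± 0.129, adjusted p = 0.00255 with PB). PEX19, the chaperone of membrane proteins, PLEOSDRAFT_1072774, had 73.2, 68.8 and 75 FPKM with BBP and PB, 56.3, 76.3 and 57.3 FPKM with BBP, and 48.9, 48.2 and 56.1 FPKM in control. Its change missed the threshold for BBP (log2 change 0.41 ± 0.132, adjusted p = 0.0544) and passed it for BBP with PB (log2 change 0.71 ± 0.132, adjusted p = 0.00227). PEX11, PLEOSDRAFT_1053846, was the most abundant peroxin gene and had 376, 328 and 329 FPKM with BBP and PB, 334, 462 and 412 FPKM with BBP, and 271.7, 303 and 262 FPKM in control. All treated libraries lay above the controls. It rose with BBP (log2 change 0.63 ± 0.143, adjusted p = 0.0149) and with BBP and PB (log2 change 0.52 ± 0.143, adjusted p = 0.0163). The first call was lost with only the 6 libraries compared. The second was lost without BBP with PB replicate 1, under scaling by library totals alone and in both limma fits.

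**Figure D2:**
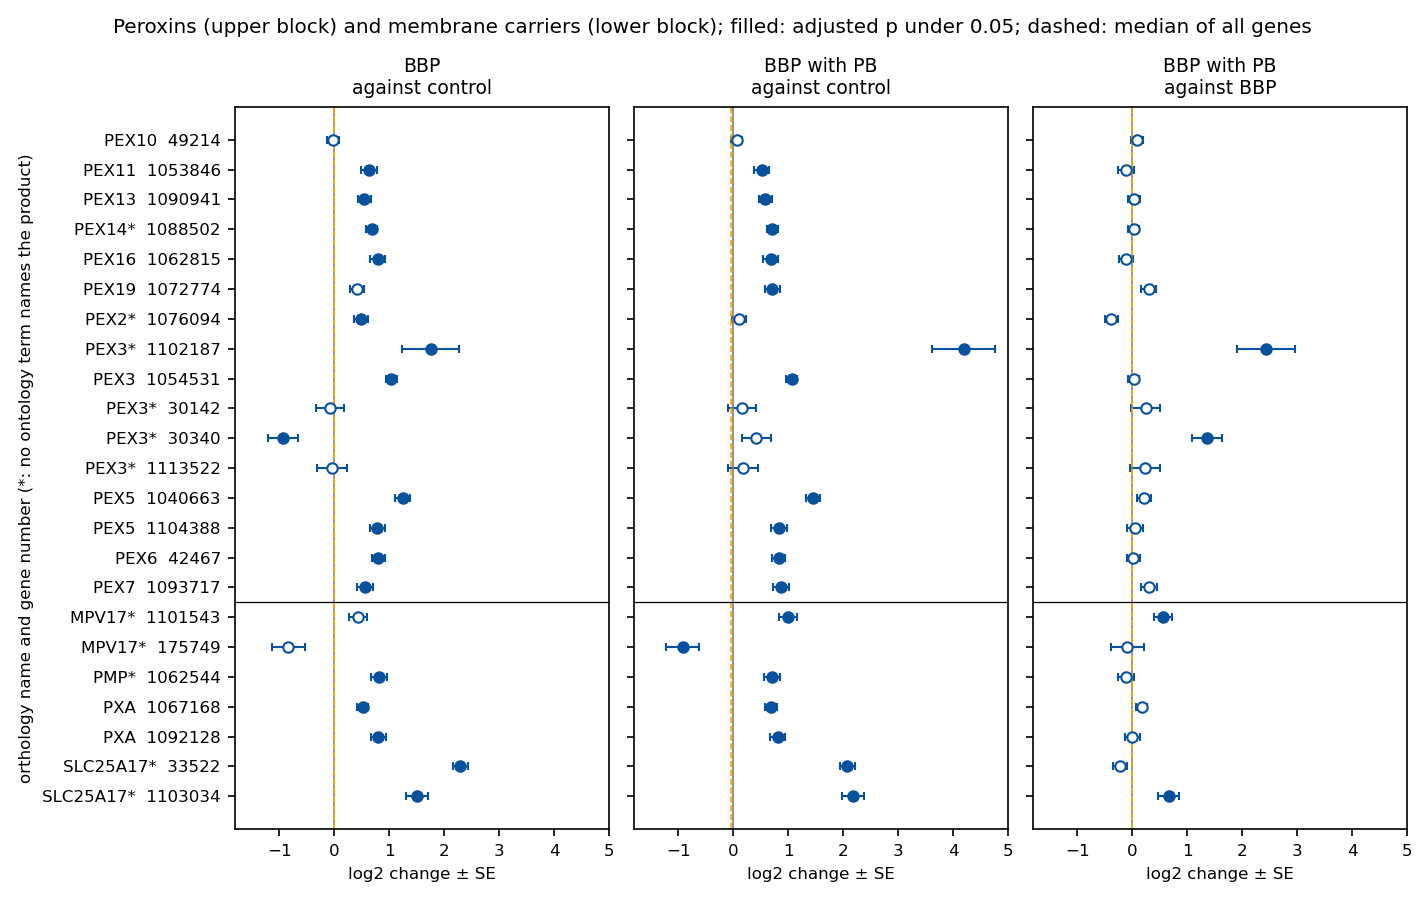
Points are log2 changes with bars of 1 SE for 16 of the 17 tested peroxin genes and the 7 tested membrane carriers in each comparison, and filled points are called. In both comparisons with control the filled points lie between 0.48 and 2.30, apart from PLEOSDRAFT_1102187 at 4.19 and PLEOSDRAFT_175749 at -0.92 with BBP and PB and PLEOSDRAFT_30340 at -0.94 with BBP, and between BBP with PB and BBP 4 points are filled.

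The 5 genes with the PEX3 number and only membrane transport terms have an uncertain product. Among the 4 that passed the filter, all calls came from PLEOSDRAFT_1102187 and PLEOSDRAFT_30340. Of all genes tested 18.4% were called for BBP and 41.1% for BBP with PB against control, and 20.4% between the treatments. PLEOSDRAFT_1102187 had 154, 207 and 187 FPKM with BBP and PB, 20.2, 69.3 and 19.3 FPKM with BBP, and 5.39, 11.5 and 18.6 FPKM in control. The libraries with BBP and PB lay above all others, and BBP replicate 2 stood apart from the other 2 BBP libraries, which lay just above the highest control. The gene rose by 4.19 ± 0.569 (adjusted p = 0.000383) on the log2 scale with BBP and PB against control and by 2.44 ± 0.526 (adjusted p = 0.0105) against BBP. Its call with BBP alone (log2 change 1.75 ± 0.517, adjusted p = 0.042) was lost in 10 of 18 alternatives. Among them were the fits without BBP replicate 2, where the change was 0.88, and without any 1 library of BBP with PB or control replicate 1 or 2. PLEOSDRAFT_30340 had 9.89, 8.12 and 11.2 FPKM with BBP and PB, 5.97, 2.48 and 3.81 FPKM with BBP, and 7.83, 9.13 and 8.26 FPKM in control. The BBP libraries lay below both other groups. It fell with BBP against control (log2 change -0.94 ± 0.27, adjusted p = 0.0389), the only fall of the 55 genes in that comparison, and was higher with BBP and PB than with BBP (log2 change 1.35 ± 0.272, adjusted p = 0.00758). The fall was lost with only the 6 libraries compared and without any 1 library other than BBP replicate 1. PLEOSDRAFT_30142 had 8.8, 11 and 9.06 FPKM with BBP and PB, 8.3, 7.73 and 10.1 FPKM with BBP, and 13.4, 7.6 and 8.17 FPKM in control, with the 3 groups overlapping. PLEOSDRAFT_1113522 had 0.786, 1.11 and 1.24 FPKM with BBP and PB, 1.21, 0.831 and 0.844 FPKM with BBP, and 0.949, 1.3 and 0.94 FPKM in control. Neither gene was called in any comparison and the groups overlapped throughout. PLEOSDRAFT_1102241 had 0.0539, 0.171 and 0 FPKM with BBP and PB, 0.107, 0.0413 and 0.108 FPKM with BBP, and 0.129, 0.308 and 0.0822 FPKM in control and was not tested.

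Of 9 genes for membrane carriers, channels and transporters 7 passed the filter. With BBP 5 of them rose against control and 2 did not pass the test, and with BBP and PB 6 rose and 1 fell. As shares of the 7, 71.4% and 85.7% rose, against 10.1% and 19.9% of all genes tested, and 21.2% of all genes fell with BBP and PB. Carriers of this kind move ATP, cofactors and fatty acyl groups across the peroxisomal membrane. The highest rises were in the 2 genes with the number of the carrier SLC25A17, which in mammals carries cofactors such as coenzyme A. The ontology terms of both name the ribosome instead, so their product is uncertain. PLEOSDRAFT_33522 had 253, 229 and 242 FPKM with BBP and PB, 255, 319 and 336 FPKM with BBP, and 60.8, 75.5 and 63.3 FPKM in control. Treated and control libraries were far apart, and those of the 2 treatments did not overlap either. Its log2 change was 2.30 ± 0.138 (adjusted p = 4.56e-05) with BBP and 2.07 ± 0.137 (adjusted p = 4.79e-06) with BBP and PB against control, and between the treatments it was not called (adjusted p = 0.257). PLEOSDRAFT_1103034 had 57.1, 45.5 and 42.4 FPKM with BBP and PB, 31.6, 35.8 and 31 FPKM with BBP, and 9.05, 17.1 and 11.6 FPKM in control, with no overlap between any 2 groups. Its log2 change was a rise of 1.50 ± 0.197 (adjusted p = 0.00139) with BBP, of 2.17 ± 0.2 (adjusted p = 4.11e-05) with BBP and PB against control, and of 0.67 ± 0.192 (adjusted p = 0.0359) against BBP. The last call was lost in 8 of 18 alternatives. Among them were scaling by library totals alone and leaving out BBP replicate 1 or 3 or any 1 library of BBP with PB.

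PXA transporters are ABC proteins that in yeast bring long-chain acyl-CoA into the peroxisome. PLEOSDRAFT_1092128 was at 34.9 ± 3.65 FPKM with BBP and PB, at 37.5 ± 3.62 FPKM with BBP and at 23.2 ± 4.12 FPKM in control, and PLEOSDRAFT_1067168 at 45.9 ± 1.19, 43.9 ± 3.01 and 33.2 ± 5.54 FPKM in the same groups. Both rose with BBP (log2 change 0.80 ± 0.132, adjusted p = 0.0038, and 0.52 ± 0.106, adjusted p = 0.00994) and with BBP and PB (log2 change 0.81 ± 0.132, adjusted p = 0.00114, and 0.69 ± 0.106, adjusted p = 0.000792). The 2 PXA genes below the filter lie side by side on the same strand with 62 bases between them. The peroxisomal membrane protein gene PLEOSDRAFT_1062544 was at 175 ± 14.1 FPKM with BBP and PB, at 203 ± 38.3 FPKM with BBP and at 125 ± 18.3 FPKM in control, and rose in both comparisons with control (log2 change 0.81 ± 0.148, adjusted p = 0.00585, and 0.70 ± 0.148, adjusted p = 0.00427 with PB). The MPV17 family went both ways. PLEOSDRAFT_1101543, at 23.5 ± 1.5 FPKM with BBP and PB, 17.1 ± 1.24 FPKM with BBP and 13.7 ± 2.87 FPKM in control, rose with BBP and PB against control (log2 change 0.99 ± 0.159, adjusted p = 0.00102) and against BBP (log2 change 0.56 ± 0.158, adjusted p = 0.0328). The last call was lost in 9 of 18 alternatives, among them without BBP replicate 1 or 3 or without any 1 library of BBP with PB. PLEOSDRAFT_175749, whose terms name the mitochondrial inner membrane and ethanol metabolism, was at 3.38 ± 1.23 FPKM with BBP and PB, 3.86 ± 0.381 FPKM with BBP and 7.5 ± 2.44 FPKM in control, and fell with BBP and PB against control (log2 change -0.92 ± 0.299, adjusted p = 0.0325). That fall was lost with only the 6 libraries compared and without replicate 1 or 2 of BBP with PB or control replicate 2 or 3.

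Of 8 antioxidant and detoxifying genes, all tested, 3 rose with BBP against control and 5 did not pass the test, and 4 rose and 4 did not pass with BBP and PB. These rises were 37.5% and 50% of the 8, where 10.1% and 19.9% of all genes tested rose. Superoxide dismutases turn superoxide into hydrogen peroxide and oxygen. The most abundant of the 61 genes was the iron-manganese type gene PLEOSDRAFT_1095940, whose ontology terms name superoxide dismutase activity and the mitochondrial inner membrane. It had 2289, 2648 and 2746 FPKM with BBP and PB, 1661, 2245 and 2256 FPKM with BBP, and 933, 1138 and 864 FPKM in control. The treated libraries were all above the controls, and the 3 libraries with PB were all above those with BBP alone. The log2 change was 1.18 ± 0.164 (adjusted p = 0.00174) with BBP and 1.60 ± 0.165 (adjusted p = 8.21e-05) with BBP and PB against control. Between the treatments it was not called (adjusted p = 0.0941). The second gene with a superoxide dismutase term, PLEOSDRAFT_1091329, was at 148 ± 3.38 FPKM with BBP and PB, 126 ± 8.6 FPKM with BBP and 122 ± 9.7 FPKM in control, and rose with BBP and PB against control (log2 change 0.50 ± 0.104, adjusted p = 0.00419) and against BBP (log2 change 0.34 ± 0.104, adjusted p = 0.0431). The first call was lost under scaling by library totals alone, and the second in 12 of 18 alternatives, among them without any 1 library of BBP with PB, BBP replicate 1 or 2 or control replicate 2. The other two genes with this number lack such a term and were not called. PLEOSDRAFT_1029741, with phosphatase terms, was at 62.9 ± 1.31, 62.7 ± 3.43 and 84 ± 14.5 FPKM with BBP and PB, BBP and control. The gene PLEOSDRAFT_1088934 was at 14.2 ± 1.93, 11.4 ± 2.67 and 19.2 ± 3.63 FPKM in the same groups. The copper-zinc type gene PLEOSDRAFT_1113505 was at 15.7 ± 1.82, 15.6 ± 1.7 and 17.9 ± 3.33 FPKM and was not called.

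Soluble epoxide hydrolases open epoxides to diols, and 2 genes carry their number, with only a general hydrolase term. PLEOSDRAFT_1112414 had 39.4, 37.2 and 39.5 FPKM with BBP and PB, 22.6, 37.2 and 26.3 FPKM with BBP, and 9.24, 15 and 13.3 FPKM in control. All treated libraries were above the controls, and those with PB and BBP replicate 2 lay close together. Its log2 change was a rise of 1.31 ± 0.191 (adjusted p = 0.00213) with BBP and of 1.85 ± 0.193 (adjusted p = 8.52e-05) with BBP and PB against control, and between the treatments it was not called (adjusted p = 0.0692). The second gene, PLEOSDRAFT_26524, was at 54.2 ± 4.46 FPKM with BBP and PB, 60.5 ± 6.73 FPKM with BBP and 70.4 ± 15.4 FPKM in control, and was not called. The peroxiredoxin gene PLEOSDRAFT_1051082, of a family that reduces peroxides with thiols, was at 36 ± 2.28, 40.2 ± 11.6 and 26.9 ± 1.38 FPKM with BBP and PB, BBP and control. It rose in both comparisons with control (log2 change 0.69 ± 0.189, adjusted p = 0.0322, and 0.63 ± 0.189, adjusted p = 0.0231 with PB), and both calls were lost under scaling by library totals alone. The BBP call was lost in 11 of 18 alternatives, among them without BBP replicate 3, any 1 control library, or replicate 2 or 3 of BBP with PB. The call with BBP and PB was lost in 7 of 18, among them without replicate 1 or 2 of BBP with PB or control replicate 2 or 3.

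Of 8 genes for oxidases and aminotransferases of amino acids 5 passed the filter. With BBP 1 rose against control and 4 did not pass the test, where 10.1% of all genes tested rose. With BBP and PB 2 of the 5 fell against control and 3 did not pass, where 21.2% of all genes fell. The D-aspartate oxidase gene PLEOSDRAFT_1114570, whose enzyme class oxidises acidic D-amino acids and releases hydrogen peroxide, had 67.2, 63.3 and 70.4 FPKM with BBP and PB, 124, 143 and 115 FPKM with BBP, and 191, 159.8 and 166 FPKM in control. No 2 groups overlapped, with the lowest values in the libraries with PB. It fell by 1.16 ± 0.142 (adjusted p = 0.000203) on the log2 scale with BBP and PB against control and fell by 0.82 ± 0.141 (adjusted p = 0.00349) against BBP, while its change with BBP alone was not called (adjusted p = 0.117). Both falls held in all 18 alternatives. The sarcosine oxidase gene PLEOSDRAFT_1041403, with a general oxidoreductase term, had 6.88, 10.7 and 8.87 FPKM with BBP and PB, 19.7, 17.3 and 26.5 FPKM with BBP, and 12.3, 11.7 and 10.5 FPKM in control. Its BBP libraries lay above both other groups, which overlapped. It rose with BBP against control (log2 change 0.98 ± 0.21, adjusted p = 0.0123) and fell with BBP and PB against BBP (log2 change -1.16 ± 0.211, adjusted p = 0.00477), and both calls held in all 18 alternatives.

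Alanine-glyoxylate aminotransferase turns glyoxylate into glycine, and 2 genes carry its number. They lie side by side on the same strand with 224 bases between them. The abundant one, PLEOSDRAFT_1071767, had 174, 159.7 and 187 FPKM with BBP and PB, 157, 271 and 137 FPKM with BBP, and 128, 157 and 149.9 FPKM in control. BBP replicate 2 stood apart from the other 8 libraries. The libraries with PB lay above the controls, and the gene was not called. Its neighbour PLEOSDRAFT_1105862 was at 6.25 ± 0.705 FPKM with BBP and PB, 8.51 ± 0.958 FPKM with BBP and 10.4 ± 0.559 FPKM in control, and fell with BBP and PB against control (log2 change -0.53 ± 0.155, adjusted p = 0.0202), a call lost without replicate 1 or 3 of BBP with PB or without control replicate 1. The D-amino acid oxidase gene that passed the filter, PLEOSDRAFT_19649, was at 2.65 ± 0.27, 3.36 ± 0.116 and 2.11 ± 0.953 FPKM with BBP and PB, BBP and control, and was not called.

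Of 8 genes for acyl transfer and accessory fatty acid reactions, all tested, 5 rose with BBP against control and 3 did not pass the test, and 6 rose and 1 fell with BBP and PB. The shares that rose were 62.5% and 75%, against 10.1% and 19.9% of all genes tested, and 21.2% of all genes fell with BBP and PB. Carnitine acetyltransferase moves acetyl groups between coenzyme A and carnitine, which in yeast lets acetyl units leave the peroxisome. The gene PLEOSDRAFT_163963 had 234, 211 and 254 FPKM with BBP and PB, 158, 199 and 139 FPKM with BBP, and 69.3, 69.7 and 66.1 FPKM in control. No 2 groups overlapped, and the values were highest with PB. On the log2 scale it rose by 1.37 ± 0.149 (adjusted p = 0.000557) with BBP and by 1.97 ± 0.152 (adjusted p = 1.3e-05) with BBP and PB against control, and by 0.60 ± 0.147 (adjusted p = 0.0184) against BBP, where the call was lost without BBP replicate 1 or 3 or without replicate 1 or 3 of BBP with PB. Further genes with this number are among those that the rule left out. These rose in both comparisons with control and were not called between the treatments. The second such gene of the 61, PLEOSDRAFT_1078778, has a general acyl transferase term and was at 6.64 ± 0.194 FPKM with BBP and PB, 10.3 ± 1.91 FPKM with BBP and 11.4 ± 2.05 FPKM in control. It fell with BBP and PB against control (log2 change -0.56 ± 0.162, adjusted p = 0.019), a call lost without replicate 2 or 3 of BBP with PB or control replicate 3. Its fall against BBP (log2 change -0.53 ± 0.162, adjusted p = 0.044) was lost when any 1 library was left out other than BBP replicate 2 or control replicate 3.

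The sterol carrier protein 2 gene PLEOSDRAFT_1088347, whose protein family binds sterols and acyl-CoA, was the most abundant gene of this group and had 276, 267 and 294 FPKM with BBP and PB, 167, 307 and 202 FPKM with BBP, and 112, 134 and 101 FPKM in control. Treated and control libraries did not overlap, and BBP replicate 2 was the highest of all 9. On the log2 scale it rose by 1.06 ± 0.209 (adjusted p = 0.00822) with BBP and by 1.48 ± 0.211 (adjusted p = 0.000506) with BBP and PB against control. The acyl-CoA thioesterase gene PLEOSDRAFT_1036262, whose enzyme class frees fatty acids from coenzyme A, had 89.3, 65 and 73.7 FPKM with BBP and PB, 62.1, 77.8 and 70.0 FPKM with BBP, and 40.6, 43.9 and 44.8 FPKM in control, with no overlap between treated and control libraries (log2 change 0.81 ± 0.138, adjusted p = 0.00441, and 1.03 ± 0.138, adjusted p = 0.000358 with PB). The racemase gene PLEOSDRAFT_1107810, for methyl-branched acyl-CoA, was at 42.5 ± 2.99 FPKM with BBP and PB, 45.7 ± 9.68 FPKM with BBP and 26.2 ± 3.68 FPKM in control, and rose in both comparisons with control (log2 change 0.92 ± 0.147, adjusted p = 0.00332, and 0.92 ± 0.147, adjusted p = 0.00102 with PB).

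Dienoyl-CoA reductases and isomerases prepare unsaturated fatty acids for oxidation. The dienoyl-CoA reductase gene PLEOSDRAFT_1090751 was at 128 ± 10.3 FPKM with BBP and PB, 140.2 ± 8.77 FPKM with BBP and 108 ± 17.7 FPKM in control. On the log2 scale it rose by 0.48 ± 0.117 (adjusted p = 0.0205) with BBP and by 0.46 ± 0.117 (adjusted p = 0.0111) with BBP and PB against control. Both calls were lost under scaling by library totals alone and in both limma fits. The BBP call was also lost with only the 6 libraries compared and without BBP replicate 2 or control replicate 1. A second reductase gene, PLEOSDRAFT_185948, was at 7.5 ± 0.357, 8.87 ± 0.842 and 10.03 ± 2.06 FPKM in the same groups and was not called. The dienoyl-CoA isomerase gene PLEOSDRAFT_162749 was at 135 ± 15, 124 ± 29.2 and 112 ± 10.7 FPKM and rose with BBP and PB against control (log2 change 0.49 ± 0.173, adjusted p = 0.0453), a call lost in 13 of 18 alternatives, among them without any 1 library other than BBP replicate 1 or 2.

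**Figure D3:**
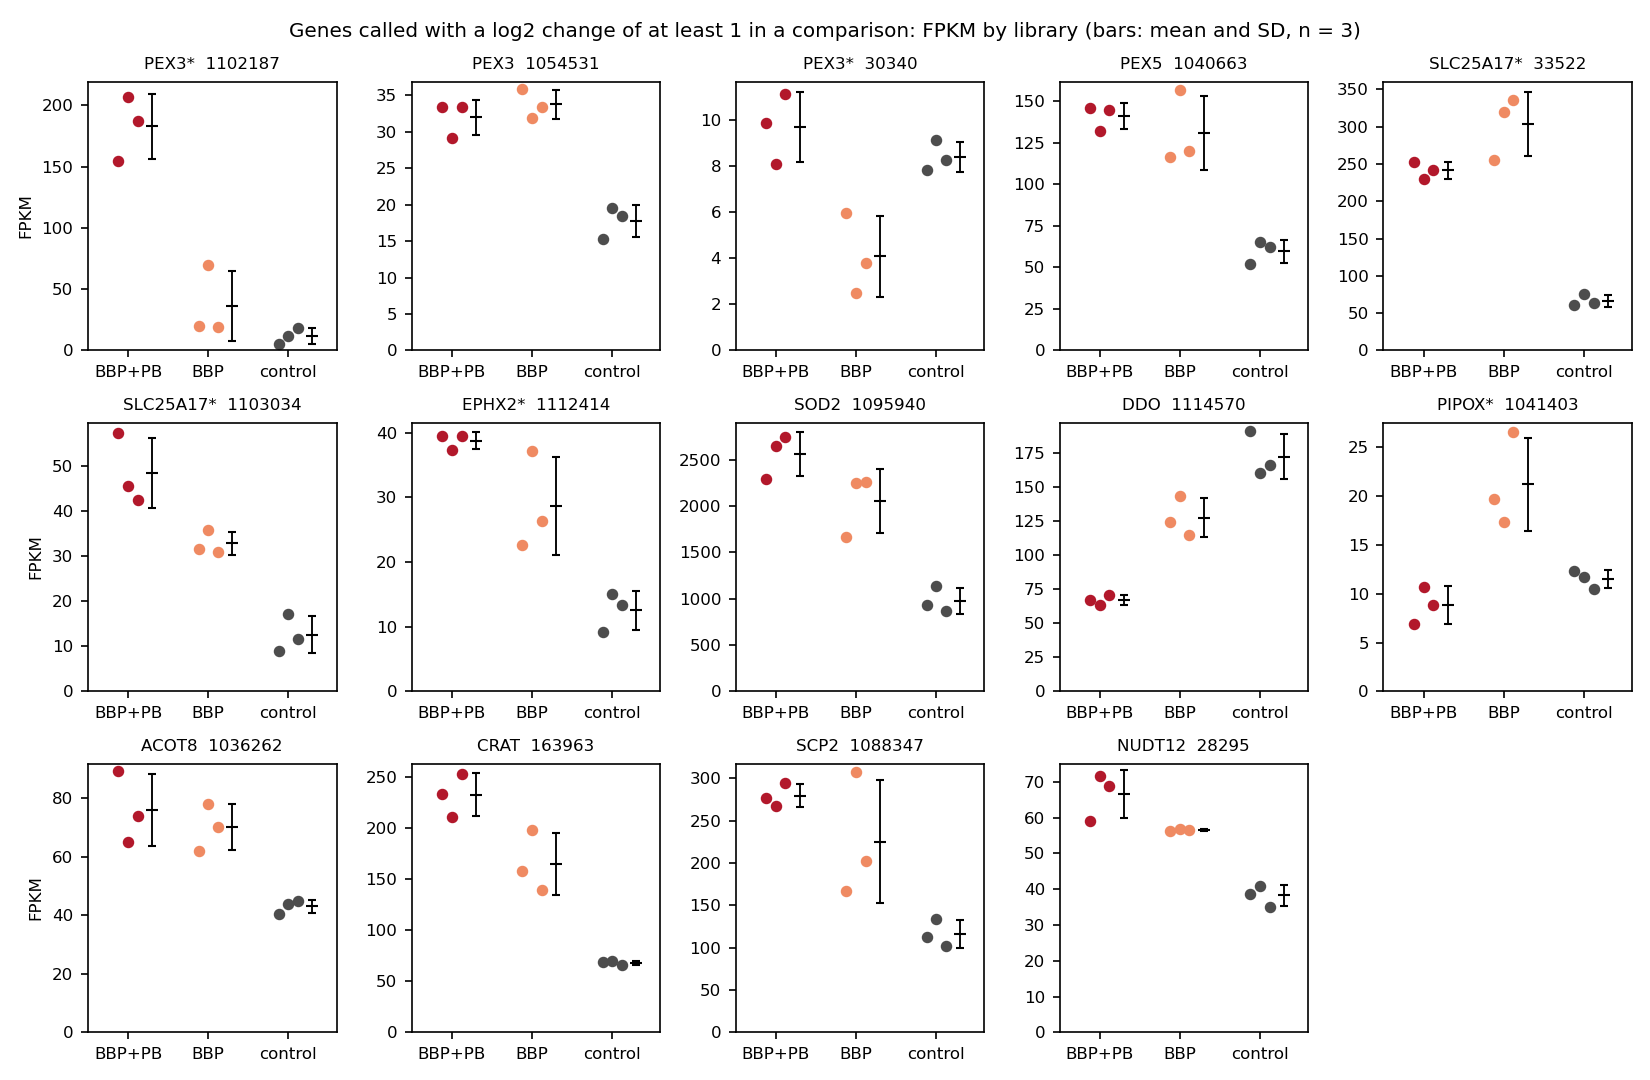
Points are the FPKM of each library for the 14 genes called with a log2 change of at least 1 in a comparison, with the mean and SD of 3 libraries beside them and axes that start at 0. In 11 panels the 6 treated libraries lie above the 3 controls, while D-aspartate oxidase (PLEOSDRAFT_1114570) is lowest with BBP and PB, sarcosine oxidase (PLEOSDRAFT_1041403) is highest with BBP, and PLEOSDRAFT_30340 is lowest with BBP.

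In the remaining metabolic group of 10 genes, all tested, 2 rose with BBP against control and 8 did not pass the test, and 2 rose and 1 fell with BBP and PB. The rises were 20% of the group in each comparison, against 10.1% and 19.9% of all genes tested. With BBP and PB the share that rose thus lay near that of all genes, of which 21.2% fell. The NADH pyrophosphatase gene PLEOSDRAFT_28295, of the nudix family that cuts nucleotide cofactors, had 59.2, 71.7 and 68.9 FPKM with BBP and PB, 56.2, 56.8 and 56.4 FPKM with BBP, and 38.8, 40.8 and 35.1 FPKM in control. No overlap was seen between treated and control libraries, and the 3 libraries with PB were above the 3 with BBP alone. On the log2 scale it rose by 0.66 ± 0.115 (adjusted p = 0.00473) with BBP and by 1.01 ± 0.116 (adjusted p = 0.000147) with BBP and PB against control. Between the treatments it was not called (adjusted p = 0.0611). Isocitrate dehydrogenase of the NADP type makes NADPH. Its gene PLEOSDRAFT_48714 had 132, 119 and 134 FPKM with BBP and PB, 121, 174 and 135 FPKM with BBP, and 107, 121 and 136 FPKM in control and was not called, with BBP replicate 2 the highest library. A second gene with this number, PLEOSDRAFT_1101107, was at 2.54 ± 0.152, 1.98 ± 0.144 and 3.03 ± 1.03 FPKM with BBP and PB, BBP and control, and was not called.

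Hydroxymethylglutaryl-CoA lyase ends leucine breakdown, and 7 genes carry its number, with means over the 9 libraries from 1.51 to 82 FPKM. An ontology term names the enzyme for 1 of them, PLEOSDRAFT_1098711, at 56.4 ± 3.95 FPKM with BBP and PB, 44.5 ± 5.6 FPKM with BBP and 36.5 ± 6.12 FPKM in control. It rose with BBP and PB against control (log2 change 0.85 ± 0.124, adjusted p = 0.000597). Its rises with BBP against control (log2 change 0.40 ± 0.124, adjusted p = 0.0494) and with BBP and PB against BBP (log2 change 0.45 ± 0.124, adjusted p = 0.0302) were lost in 15 and 9 of 18 alternatives, the first without any 1 library other than control replicate 3 and the second without BBP replicate 1 or 3 or any 1 library of BBP with PB. PLEOSDRAFT_1079700, with a general hydrolase term, was at 1.74 ± 0.127 FPKM with BBP and PB, 2.68 ± 0.738 FPKM with BBP and 3.96 ± 0.841 FPKM in control, and fell with BBP and PB against control (log2 change -0.95 ± 0.258, adjusted p = 0.015), a call lost without replicate 3 of BBP with PB or control replicate 2. The remaining 5 genes with this number were not called in any comparison: PLEOSDRAFT_1111789, PLEOSDRAFT_1102767, PLEOSDRAFT_1102166, PLEOSDRAFT_1113415 and PLEOSDRAFT_1044455.

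In all, 38 of the 55 tested genes were called in at least 1 comparison and 17 in none. The same count was not made over all genes, of which 41.1% were called in BBP with PB against control alone. Among the 26 genes with an ontology term for the product, all tested, 18 rose with BBP and 8 did not pass the test, and 20 rose and 2 fell with BBP and PB against control. Among the 29 tested genes with no such term 10 rose and 1 fell with BBP, and 10 rose and 3 fell with BBP and PB. As shares, 69.2% and 76.9% of the 26 rose, and 34.5% of the 29 in each comparison, against 10.1% and 19.9% of all genes. Falls made up 8.33% and 21.2% of all genes. Of the 28 genes that rose with BBP 20 were highest in replicate 2 among the BBP libraries, 3 in replicate 1 and 5 in replicate 3. For all 55 tested genes these counts were 29, 10 and 16, and over all genes of the table they were not made. Without BBP replicate 2 the count of rises was 24, and 8.91% of all genes rose, against 10.1% with all 9 libraries. Under scaling by library totals alone 7 of the 28 were no longer called, namely PEX2, PEX7, the PXA gene PLEOSDRAFT_1067168, the peroxiredoxin, the reductase PLEOSDRAFT_1090751, the lyase PLEOSDRAFT_1098711 and PLEOSDRAFT_1102187. Between BBP with PB and BBP the 7 rises became 11, 2 and 3 without BBP replicates 2, 1 and 3. They became 2, 3 and 2 without replicates 1, 2 and 3 of BBP with PB. Over all genes the share that rose was 9.98% with all 9 libraries and 10.8%, 5.83% and 6.89% without BBP replicates 2, 1 and 3. Without replicates 1, 2 and 3 of BBP with PB it was 6.25%, 6.18% and 5.48%. The 5 falls with BBP and PB against control became 3, 3 and 2 without replicates 1, 2 and 3 of BBP with PB, and 3 without control replicate 2. In the same fits 16.7%, 16.1%, 15.2% and 16.2% of all genes fell, against 21.2% with all 9 libraries.

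A pair of further lists were set beside these genes. The 19 genes of the peroxisome map that the rule left out carry the numbers of acyl-CoA oxidases, acyl-CoA ligases, thiolases, an enoyl-CoA isomerase, carnitine acetyltransferases and catalases, and 15 of them passed the filter. With BBP 9 rose against control and 6 did not pass the test, with a median log2 change of 0.95, against 0.48 for the 55 genes. With BBP and PB 10 rose and 3 fell, with medians of 0.88 and 0.56. Another 26 genes have a peroxisome ontology term but no peroxisome map, and 25 passed the filter. Of these 9 rose and 2 fell with BBP, and 13 rose and 12 did not pass with BBP and PB against control, with medians of 0.17 and 0.37. Over all genes tested 10.1% rose and 8.33% fell with BBP, and 19.9% rose and 21.2% fell with BBP and PB against control. The difference between the lists was not tested.

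**Figure D4:**
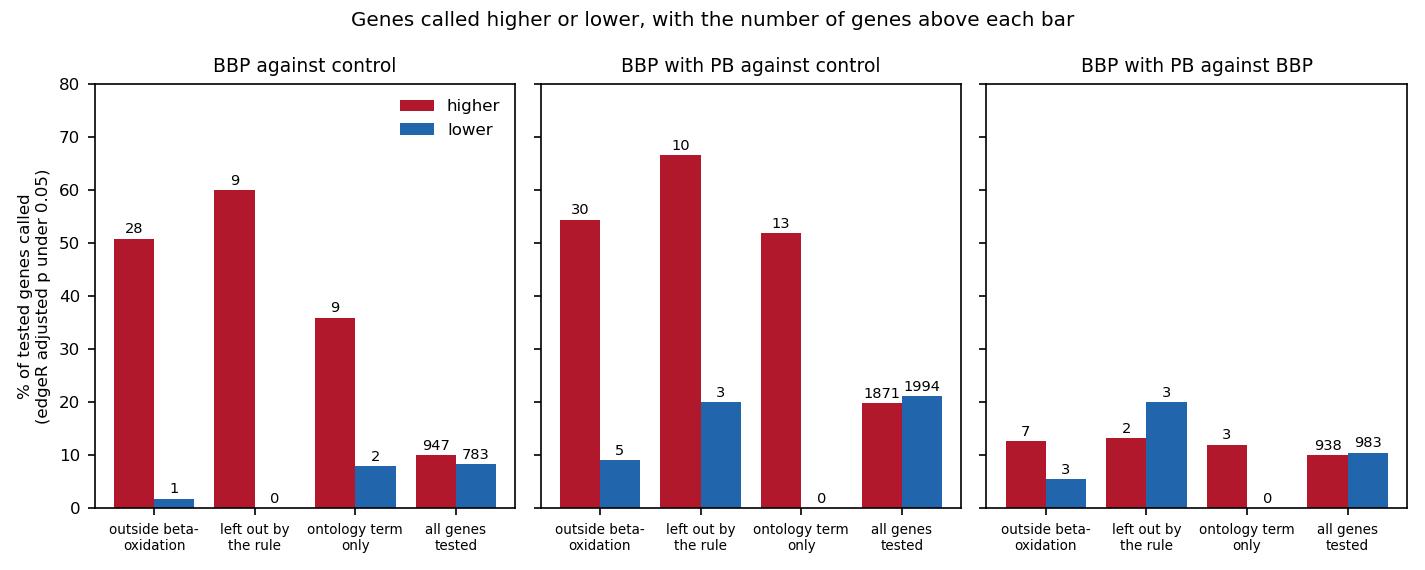
Bars are the percent of tested genes called higher or lower in each comparison for the 55 genes outside beta-oxidation, the 15 left out by the rule, the 25 with an ontology term only and all 9399 genes, with counts above the bars. The red bars of the 3 peroxisome lists are taller than that of all genes in both comparisons with control, and between BBP with PB and BBP those of the 55 genes and of all genes are 12.7% and 9.98%.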

How the data were processed

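The deposited table holds, for each gene and library, raw counts and FPKM (fragments scaled to gene length and library total). The authors made both, and fastp, HISAT2 and StringTie are named in the submitters' processing notes without role or version. Which tool counted the reads, whether it used strand, and on which build and annotation is not given in the sources used here, and no coordinates are printed. The libraries were poly(A) selected and strand-marked (dUTP), per the labels' protocols. Product names come from the orthology numbers in the deposited table, and 0 of its gene identifiers matched the 11849 genes of the RefSeq table at hand.

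From the deposited counts, edgeR 4.0.16 (R 4.3.3) tested 9399 of 10682 genes, those with a mean of at least 1 FPKM over the 9 libraries. It used TMM scaling, 1 quasi-likelihood fit of the 3 groups, 2-sided tests and Benjamini-Hochberg adjustment over all genes tested, called at 0.05. The SE of a log2 change is its size divided by the square root of F. The common biological coefficient of variation was 0.201. Libraries of a group differed beyond sampling noise in every pair (39.27 to 317.8 chi-square units per degree of freedom), and all 9 were counted separately. That the replicates are biological is the series' statement, and p-values measure the spread between these libraries. The procedure was tested on simulated data.

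The genes with a value per library are those called with a log2 change of at least 1, those with a peroxin number and the most abundant of each role group. The others have means or ranges, and 1 gene is counted but not reported here. Members and lists were chosen with earlier results of these data known. The 18 alternatives are DESeq2 size factors, library size only, no filter, filterByExpr, the DESeq2 1.42.0 Wald test, limma 3.58.1 on log2(FPKM + 1) and on log2(FPKM + 0.1), a replicate block, only the 6 libraries compared, and leaving out each library.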

Additional observations from a re-analysis of the deposited data

How the results depend on the processing

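Of 74 called changes of the 55 genes, 50 passed the threshold in all 18 alternatives and 24 were lost in at least 1. By comparison 20 of 29 held for BBP against control, 26 of 35 for BBP with PB against control, and 4 of 10 for BBP with PB against BBP. No called change turned its sign. The 1 fall with BBP became 3 with library size only, with the DESeq2 Wald test and with limma with either pseudocount. It became 0 with only the 6 libraries compared. The share of all genes that fell was 8.33% in the fit used above. In these alternatives it was 11.8%, 11.3%, 11.2%, 11% and 3.87%, in the same order. Leaving out 1 library gave 0 to 2 such falls and 23 to 28 rises. Of all genes 4.07% to 9.7% then fell and 6.21% to 10% rose. For BBP with PB against control leaving out 1 library gave 2 to 5 falls and 27 to 32 rises. There 15.2% to 23% of all genes fell and 15.4% to 21.3% rose. Between BBP with PB and BBP leaving out 1 library gave 2 to 11 rises and 2 to 4 falls. Of all genes 5.48% to 13.5% then rose and 5.7% to 12.7% fell. Library size only gave 3 rises and 5 falls, where 6.61% of all genes rose and 14.1% fell. Limma with either pseudocount gave 3 rises and 4 falls. In these limma fits 6.95% and 6.79% of all genes rose and 13.1% and 13.4% fell. PEX2 between BBP with PB and BBP, not called by edgeR with TMM scaling on all 9 libraries, was called as lower in 6 of the 18 alternatives. Among these, the edgeR fits with only the 6 libraries compared and without control replicate 1 or 3 kept TMM scaling (adjusted p = 0.0217, 0.0279 and 0.031). PEX19 with BBP passed the threshold under the DESeq2 Wald test and without BBP replicate 1 (adjusted p = 0.0288 and 0.0497).

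With a replicate block the 3 comparisons gave 26 rises and 1 fall, 29 rises and 5 falls, and 5 rises and 3 falls. Of all genes 8.55%, 18.9% and 8.33% rose there, and 6.3%, 19.6% and 8.35% fell. Same-numbered libraries correlated from -0.144 to 0.156 in their deviations from the group means, and not every library correlated best with its own number. Whether libraries of the same number were paired is not stated. These correlations cannot decide it, as they rest on deviations from means of 3 libraries. The cause of the shifts between alternatives was not tested. With 3 libraries a group, changes of small size can be missed, and genes below 1 FPKM were not tested.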
